A study of Mus musculus with 6 samples.

Results

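The genes described are the 3 TGF-beta ligand genes Tgfb1, Tgfb2 and Tgfb3, the receptor genes Tgfbr1 and Tgfbr2, the co-receptor genes Tgfbr3 and Eng, and the latent TGF-beta binding protein genes Ltbp1, Ltbp2 and Ltbp3. They were taken by symbol from a deposited table of exon counts with 24940 genes, in which each of the 10 had its own row. The table comes from bulk RNA sequencing of primary hepatic stellate cells, liver pericytes that store vitamin A, isolated from wild-type female mice of the C57BL/6JBomTac strain. The age of the mice is not given in the sources used here. In the forskolin group, 3 libraries, 5 µM forskolin was added to the medium 2 days after isolation for 3 h; forskolin activates adenylyl cyclase directly and so raises cAMP. In the DMSO group, 3 libraries, the cells had the same time in culture and received an equal volume of the solvent for 3 h. Libraries of each group carry the letters A, B and C. Separate animals or isolations are not stated for the letters. The p-values therefore cover the scatter among these 6 libraries alone, and that scatter may be technical.

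TGF-beta is secreted in a latent form. Its propeptide stays wrapped around the ligand and is tied to the matrix by latent TGF-beta binding proteins, or to the cell surface by carrier proteins, until integrins or proteases release it. The free ligand joins the type II receptor, TGFBR2, which phosphorylates the type I receptor, TGFBR1, and this kinase phosphorylates SMAD2 and SMAD3; betaglycan (TGFBR3) and endoglin (ENG) present ligands of the family to these receptors. In the liver the pathway is known as the main driver of the change of stellate cells into matrix-producing myofibroblasts.

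Column totals ran from 2770629 to 10607997 counts, and both C libraries were the shallowest of their group. Log2 levels of the C libraries correlated with those of A and B of their group at 0.925 to 0.930 across genes, against 0.980 between forskolin A and B and 0.972 between DMSO A and B; genes are not independent replicates. Levels are given as CPM, counts over library size scaled by the trimmed mean of M values. The sum of 14 stellate cell markers lay between 1518 and 1715 CPM in forskolin libraries and between 1391 and 1526 CPM in DMSO libraries. Of 13 tested, 2 were called higher, where 2.22% of all tested genes were. They were Hgf (76.3 CPM with forskolin and 22.9 CPM with DMSO on average) and Hand2 (96.5 and 46.9 CPM). Gfap did not pass 1.72 CPM in any library. Markers of other cell types had low sums. The 12 endothelial markers summed to 70.7 to 108 CPM with forskolin and 18.4 to 31.6 CPM with DMSO, but without Egfl7, left out after its values were seen, the sums were 22.5 to 29.4 CPM and 14.3 to 25.1 CPM, and Pecam1 did not pass 5.76 CPM anywhere. The 10 macrophage markers summed to 14.2 to 18.2 CPM with forskolin and 18.4 to 23.4 CPM with DMSO, and 5 platelet markers to 13.2 to 15.6 CPM and 7.88 to 15.6 CPM, with 1 of them at 0 throughout. The 8 hepatocyte markers gave 5.00 to 21.8 CPM with forskolin and 6.99 to 9.49 CPM with DMSO. Cholangiocyte markers, 2 of 6 at 0, gave 11.7 to 42.9 CPM with forskolin and 6.10 to 19.5 CPM with DMSO. Of 3 tested, 1 was called higher, where 2.22% of all tested genes were. This was Krt23, at 4.79, 2.79 and 2.33 CPM in forskolin A, B and C and 0 in every DMSO library. Krt23 thus passed the filter on low counts through the forskolin libraries alone. Its level was low, as 3 counts equal 1.17 CPM in forskolin C. Spp1, which was not called, averaged 22.5 CPM with forskolin and 9.51 CPM with DMSO. Lymphocyte markers, 3 of 6 at 0, gave 1.88 to 5.83 CPM with forskolin and 1.17 to 5.42 CPM with DMSO. Portal fibroblast and mesothelial markers, 3 of 10 at 0, gave 15.9 to 38.0 CPM with forskolin and 10.2 to 30.8 CPM with DMSO.

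After 3 h of forskolin, the ligand gene Tgfb1 was the member of the family that rose; for the other 9 no change passed the test. All 10 genes had enough counts to be tested. By edgeR's quasi-likelihood test, 1 of 10 was called higher at a Benjamini-Hochberg adjusted p under 0.05, where 2.22% of the 12233 tested genes were, and 0 of 10 were called lower, where 0.572% of all tested genes were. DESeq2 and limma-voom also called 1 higher and 0 lower. At an unadjusted p under 0.05, which 12.1% of all tested genes had, there were 2 of 10, Tgfb1 and Tgfbr1. Without both C libraries, a fit added with earlier results known, Tgfb1 and Ltbp1 were called, 2 of 10, where 5.86% of 12597 genes were called higher. The log2 change was positive for 9 of 10 members, with a median of 0.35, against 6211 of 12233 and a median of 0.00 over all tested genes. In 5 members every forskolin library lay above every DMSO library, a pattern that 10.7% of all tested genes had.

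**Figure D1:**
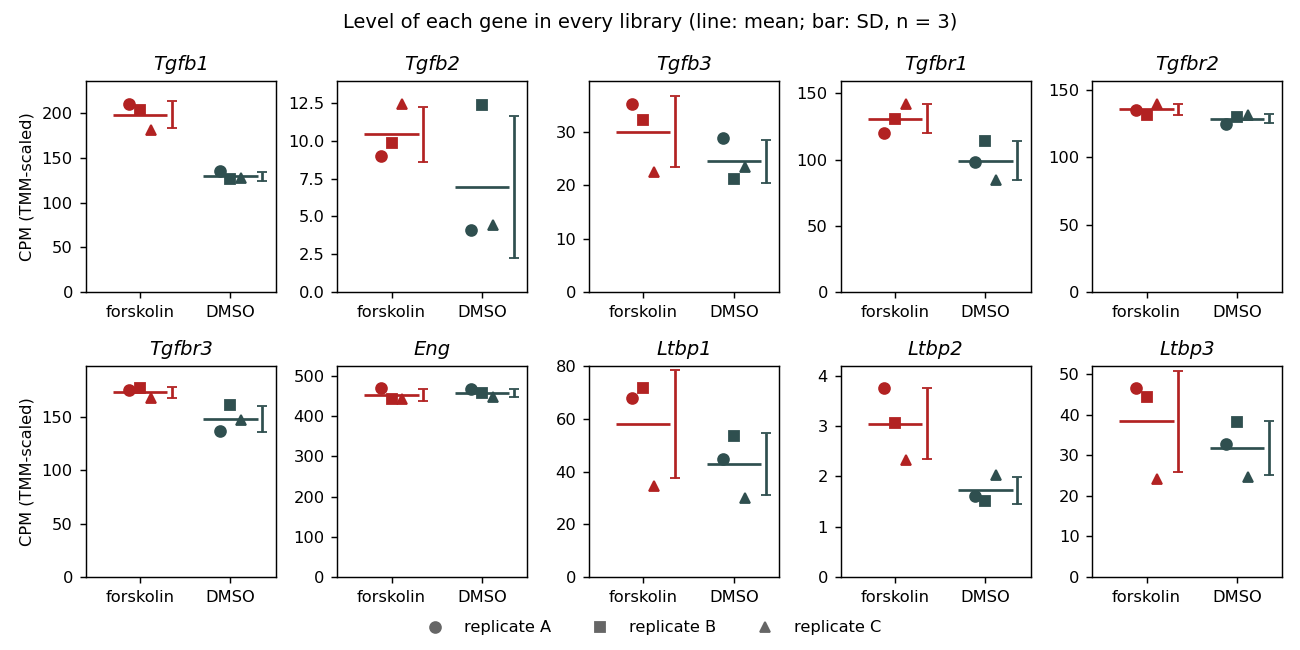
Level of each of the 10 genes in CPM in every library, forskolin on the left and DMSO on the right of each panel; symbols mark replicates A, B and C, lines the means and bars the SD (n = 3 per group). Forskolin libraries of Tgfb1 sit at 181 CPM or above and DMSO libraries at 135 CPM or below, while the C libraries of Ltbp1 and Ltbp3 lie low in both groups.

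Ligands were dominated by Tgfb1, the isoform most tied to fibrosis. Tgfb1 (chromosome 7, 25687002 to 25705077, plus strand, mm10) had 210, 203 and 181 CPM in forskolin A, B and C, against 135, 126 and 127 CPM in DMSO A, B and C. The groups did not overlap, and the DMSO libraries lay close together. Its level averaged 198 ± 15.2 CPM with forskolin and 129 ± 5.15 CPM with DMSO (SD, n = 3 each), a 1.53-fold rise with a log2 change of 0.62 ± 0.10 (SE, 95% interval 0.38 to 0.85, adjusted p = 0.00891). The size of the change held within 0.57 to 0.68 on the log2 scale when each library was left out in turn, but the call did not: the adjusted p was 0.0754 without forskolin A, 0.0588 without forskolin B and 0.0731 without DMSO B. In bulk samples more cells that make a transcript and more transcript per cell cannot be told apart. Macrophages and platelets are known sources of TGF-beta1. The marker sum averaged 15.9 CPM with forskolin and 21.1 CPM with DMSO for macrophages, and 14.3 and 12.2 CPM for platelets; their part in the rise was not tested. No exon of Tgfb1 overlaps one of another gene in the GENCODE M21 annotation.

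The start region of Tgfb1 is shown because it is the gene of the family that rose. It covers chr7:25686752-25687051, plus strand, 250 bases before to 50 after the RefSeq start (GRCm38.p6), and the capitals mark GC boxes.
Tgfb1: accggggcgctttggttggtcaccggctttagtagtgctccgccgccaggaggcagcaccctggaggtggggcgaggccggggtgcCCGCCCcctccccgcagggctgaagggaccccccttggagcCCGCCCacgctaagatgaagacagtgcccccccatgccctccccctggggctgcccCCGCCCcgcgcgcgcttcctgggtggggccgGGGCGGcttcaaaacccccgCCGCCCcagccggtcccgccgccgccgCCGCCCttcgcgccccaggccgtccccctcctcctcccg
It holds GGGCGG, the GC box that Sp1 family factors bind, 6 times on either strand, with first bases at -164, -123, -67, -36, -16 and 12 from the start, and its GC content was 77.0%, against a median of 52.7% over all 32851 RefSeq promoter windows of this length. GC boxes stood in 35.7% of those windows. Members that were not called held them too. The first Tgfbr1 window had 2 at a GC content of 74.7%, and the Ltbp2 window 2 at 61.0%. Of the other motifs searched on both strands, the cAMP response element TGACGTCA, its short core TGACG, the NR4A element AAAGGTCA and the AP-1 element TGANTCA, none matched in the Tgfb1 window. They stood in 1.79%, 20.8%, 1.51% and 7.81% of all windows; the core lies inside the full element and every full match also counts as a core match.

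Tgfb2, a ligand that needs betaglycan for strong receptor binding, was scarce (chromosome 1, 186622792 to 186705989, minus strand). It had 8.96, 9.85 and 12.4 CPM in forskolin A, B and C, against 4.08, 12.4 and 4.41 CPM in DMSO A, B and C. DMSO B reached the highest forskolin library, so the groups overlapped, and the log2 change was 0.52 ± 0.47 (SE, 95% interval -0.53 to 1.58, adjusted p = 0.794). Without DMSO B it was 1.28 with an adjusted p of 0.392. Its start region holds the core TGACG once, at -72. Tgfb3, a ligand best known from palate and wound repair (chromosome 12, 86056743 to 86079041, minus strand), had 35.2, 32.2 and 22.5 CPM in forskolin A, B and C and 28.9, 21.1 and 23.4 CPM in DMSO A, B and C. These groups overlapped too, at a log2 change of 0.31 ± 0.23 (SE, 95% interval -0.21 to 0.83, adjusted p = 0.713).

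Set against each other per kb of transcript, Tgfb1 held 88.9, 89.1 and 90.3% of ligand transcripts in forskolin A, B and C, against 87.0, 87.1 and 88.3% in DMSO A, B and C. The share was 1.98 percentage points higher on average with no overlap, and the exact two-sided permutation test gave p = 0.1, the smallest that 3 against 3 libraries allow (adjusted p = 0.2 over the 10 shares tested by exact permutation). Tgfb3 held 8.59 ± 1.28% with forskolin and 10.6 ± 1.29% with DMSO (SD, n = 3 each), and Tgfb2 1.98 ± 0.505% and 1.99 ± 1.37%. Whether Tgfb1 changed more than Tgfb3 was asked of their ratio within each library. The log2 ratio was 3.39 ± 0.23 with forskolin and 3.05 ± 0.18 with DMSO (SD, n = 3 each), and the groups overlapped (difference 0.33, exact permutation p = 0.2, adjusted p = 0.333 over 5 ratios). For Tgfb1 over Tgfb2 the difference was -0.12 (exact permutation p = 0.9) and for Tgfb2 over Tgfb3 it was 0.46 (exact permutation p = 0.6). With 3 libraries a group no ratio could pass 0.05, so these tests do not decide whether the ligands changed unequally.

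**Figure D2:**
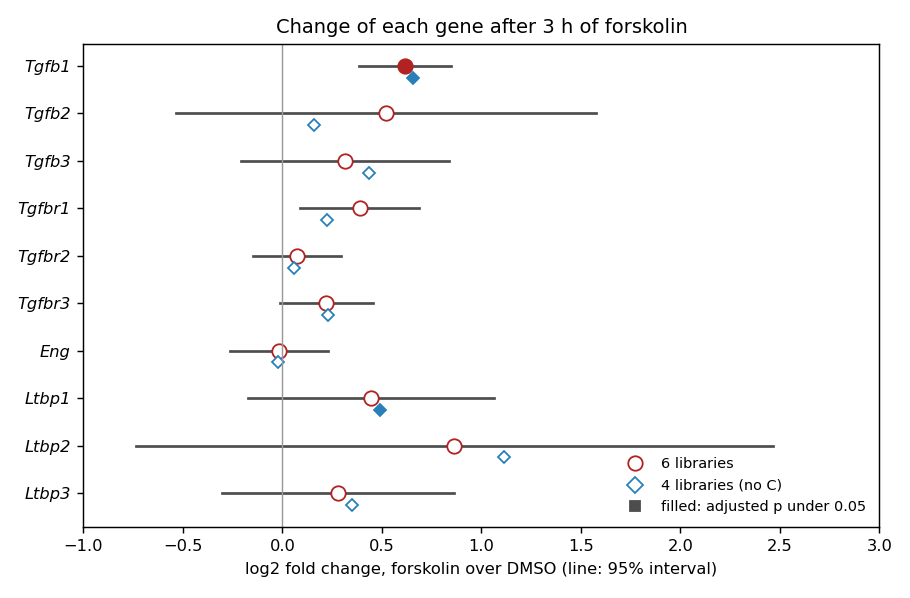
Log2 fold change of each gene, forskolin over DMSO, with the 95% interval of the 6-library fit (circles) and the value without both C libraries (diamonds); filled symbols have an adjusted p under 0.05. Tgfb1 is filled in both fits and Ltbp1 only in the 4-library fit, where its log2 change is 0.49, and the interval of Ltbp2 is the widest of the 10.

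Among the signalling receptors, Tgfbr1 (ALK5, the type I kinase; chromosome 4, 47353222 to 47414924, plus strand) had 120, 131 and 142 CPM in forskolin A, B and C, against 98.5, 114 and 84.7 CPM in DMSO A, B and C. The groups did not overlap, though forskolin A and DMSO B were close. The log2 change was 0.39 ± 0.13 (SE, 95% interval 0.09 to 0.69), with an unadjusted p of 0.0161 by edgeR and an adjusted p of 0.239 over all genes, so no rise was called. Tgfbr2 (the type II kinase; chromosome 9, 116087695 to 116175363, minus strand) had 135, 131 and 140 CPM in forskolin A, B and C and 125, 130 and 131 CPM in DMSO A, B and C. The lowest forskolin library exceeded the highest DMSO library by a narrow margin, at 131.4 and 131.1 CPM. Its log2 change was 0.07 ± 0.10 (SE, 95% interval -0.15 to 0.30, adjusted p = 0.88). The log2 ratio of Tgfbr1 over Tgfbr2 per kb was -0.32 ± 0.10 with forskolin and -0.65 ± 0.22 with DMSO (SD, n = 3 each), with no overlap (difference 0.33, exact permutation p = 0.1, the smallest possible, adjusted p = 0.25 over 5 ratios).

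The co-receptor gene Tgfbr3, which encodes betaglycan (chromosome 5, 107106567 to 107289629, minus strand), had 175, 177 and 167 CPM in forskolin A, B and C, against 137, 161 and 147 CPM in DMSO A, B and C. All forskolin libraries were higher, by a log2 change of 0.22 ± 0.10 (SE, 95% interval -0.01 to 0.45, adjusted p = 0.448). Eng (chromosome 2, 32646595 to 32682669, plus strand), a co-receptor best known from endothelium that also marks cultured mesenchymal cells, was the most abundant gene of the family. It had 470, 444 and 444 CPM in forskolin A, B and C and 468, 457 and 448 CPM in DMSO A, B and C, with a log2 change of -0.02 ± 0.11 (SE, 95% interval -0.26 to 0.23, adjusted p = 0.986). The groups overlapped fully. Of the 12 endothelial markers, Egfl7 reached 78.6 CPM with forskolin and 6.89 CPM with DMSO at most, Flt1 16.8 and 10.2 CPM, and the other 10 did not pass 7.38 CPM in any library. Their part in the level of Eng was not tested. Per kb, Eng took 62.9, 61.1 and 60.5% of receptor and co-receptor transcripts in forskolin A, B and C, against 66.7, 63.6 and 65.5% in DMSO A, B and C. That share did not overlap between groups (difference -3.75 percentage points), nor did those of Tgfbr1 and Tgfbr3. Tgfbr1 held at least 9.97% in each forskolin library and at most 9.86% in each DMSO library (difference 2.30 percentage points). Tgfbr3 held 13.8 ± 0.468% with forskolin and 12.4 ± 0.879% with DMSO (SD, n = 3 each). Each reached the smallest exact permutation p of 0.1 and an adjusted p of 0.2. Shares are parts of a whole, so these differences are not independent of each other. A lower share of Eng is not a lower level of Eng. The log2 ratio of Eng over Tgfbr3 was 2.16 ± 0.05 with forskolin and 2.40 ± 0.14 with DMSO (SD, n = 3 each, exact permutation p = 0.1, adjusted p = 0.25).

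Latency proteins gave no call in the 6-library fit. Ltbp1, the main partner of the TGF-beta1 propeptide in the matrix (chromosome 17, 75005529 to 75392512, plus strand), had 68.0, 71.7 and 34.6 CPM in forskolin A, B and C, against 44.9, 53.6 and 30.2 CPM in DMSO A, B and C. In each group C was the lowest library. The log2 change over 6 libraries was 0.44 ± 0.28 (SE, 95% interval -0.17 to 1.06, adjusted p = 0.628). Without both C libraries it was 0.49 with an adjusted p of 0.0201, the call that this gene gave in 1 of 16 alternatives; with C kept and libraries weighted by quality in limma-voom the adjusted p was 0.0761.

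Because forskolin acts through cAMP, the Ltbp1 start region is shown as well. It covers chr17:75005279-75005578, plus strand (RefSeq, GRCm38.p6), and its capitals mark the cAMP response element.
Ltbp1: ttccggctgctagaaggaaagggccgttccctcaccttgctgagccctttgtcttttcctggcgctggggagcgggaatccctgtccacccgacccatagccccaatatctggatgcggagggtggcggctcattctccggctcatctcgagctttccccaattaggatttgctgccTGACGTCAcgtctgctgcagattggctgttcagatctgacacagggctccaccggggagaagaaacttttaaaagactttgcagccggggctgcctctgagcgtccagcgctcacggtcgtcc
The palindrome TGACGTCA, first base at -73, is the full site that CREB binds, and 1.79% of all windows held one. Ltbp1 was the only one of the 8 members with a window in the RefSeq table (10 windows in all, with 2 each for Ltbp1 and Tgfbr1) to hold it; the second Ltbp1 window, at the start of a shorter transcript, held no motif of those searched. The deposited table has 1 row per gene, so transcripts from these starts cannot be told apart. A match in letters does not show that a factor was bound.

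Ltbp3, which assembles with the latent ligand in bone and vessels (chromosome 19, 5740904 to 5758532, plus strand), had 46.5, 44.4 and 24.1 CPM in forskolin A, B and C and 32.7, 38.1 and 24.7 CPM in DMSO A, B and C. Again the C libraries were lowest and the groups overlapped (log2 change 0.28 ± 0.26, SE, adjusted p = 0.801). The Ltbp3 start region holds the AP-1 element TGANTCA once, at -6. Ltbp2, a microfibril protein that, unlike its paralogs, does not bind latent TGF-beta, was barely detected (chromosome 12, 84783212 to 84876495, minus strand). Its rows held 36.5, 33 and 6 counts in forskolin A, B and C and 11, 15 and 6 counts in DMSO A, B and C, or 3.75, 3.07 and 2.33 CPM against 1.60, 1.52 and 2.03 CPM. Groups did not overlap, but at this depth the log2 change of 0.86 had an SE of 0.72 and an interval from -0.74 to 2.47 (adjusted p = 0.76). Among transcripts of these 3 genes per kb, Ltbp1 and Ltbp3 were near equal: 49.6 ± 1.71 and 47.3 ± 1.16% with forskolin, 47.0 ± 2.33 and 50.7 ± 1.37% with DMSO (SD, n = 3 each). The shares leave out Ltbp4, a further gene of this kind, named after its values were seen. Ltbp4 was more abundant, at 14.7 ± 4.53 CPM per kb with forskolin and 15.5 ± 0.252 with DMSO (SD, n = 3 each). The share of Ltbp3 did not overlap between the groups (difference -3.40 percentage points, exact permutation p = 0.1, adjusted p = 0.2). This is a share and not a level, for which the log2 change of Ltbp3 was 0.28.

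Levels per kb of transcript spanned the range from Eng, at 127 ± 4.21 CPM per kb with forskolin and 129 ± 2.78 with DMSO, down to Ltbp2, at 0.464 ± 0.108 and 0.262 ± 0.0419 (SD, n = 3 each). Tgfb1 came next to Eng, at 91.5 ± 7.01 CPM per kb with forskolin and 59.8 ± 2.38 with DMSO. In both groups Tgfbr2, Tgfbr3 and Tgfbr1 followed, at 28.4 ± 0.891, 28.5 ± 0.822 and 22.8 ± 1.92 CPM per kb with forskolin and 26.9 ± 0.704, 24.4 ± 2.01 and 17.3 ± 2.59 with DMSO. Tgfbr2 was above Tgfbr3 in 1 of 3 forskolin libraries and in 3 of 3 DMSO libraries, and the ranges of both genes overlapped within each group. Ranges also overlapped within each group among Tgfb3, Ltbp1 and Ltbp3, at 8.88 ± 1.96, 7.83 ± 2.75 and 7.43 ± 2.40 CPM per kb with forskolin and 7.24 ± 1.19, 5.78 ± 1.60 and 6.17 ± 1.30 with DMSO. Tgfb2 stood below these, at 2.01 ± 0.348 and 1.34 ± 0.903. The library kit did not mark strand, and GENCODE M21 shows exon overlap with another gene on the opposite strand for Ltbp2 (764 bases with D030025P21Rik), Tgfb3 (257 with Gm48008 and 163 with Gm37804), Tgfb2 (124 with Gm29491) and Eng (61 with Fpgs), and on the same strand for Tgfbr3 (297 with Gm43422). Reads there cannot be told apart; Fpgs itself was at a log2 change of 0.07 (adjusted p = 0.939).

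**Figure D3:**
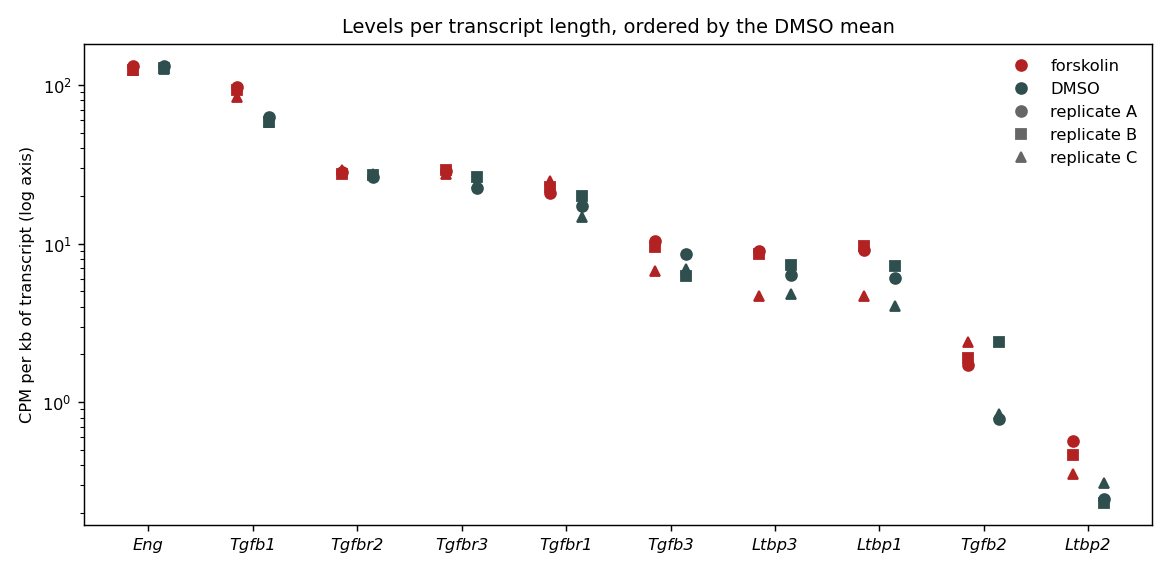
Levels of the 10 genes in CPM per kb of transcript on a log axis, ordered by the DMSO mean, with forskolin left of DMSO for each gene and 1 symbol per library. Eng and Tgfb1 lie above all other members, and the ranges of Tgfb3, Ltbp3 and Ltbp1 overlap.

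The genes whose pattern was most like that of Tgfb1 were Acsl4, a ligase of arachidonic acid, Clip2, a microtubule-binding protein, and Plat, tissue plasminogen activator. Their log2 levels correlated with Tgfb1 at a Pearson r of 0.997, 0.996 and 0.994 over the 6 libraries, the highest of 7548 genes of at least 20 CPM. The 6 libraries differ in depth and group, and every gene was measured in the same 6, so r describes the likeness only. Acsl4 and Clip2 rose by similar amounts, with log2 changes of 0.63 and 0.64 (adjusted p = 0.0121 and 0.00517), and Plat rose by 1.97 (adjusted p = 0.00255). Since these genes were picked for likeness to a gene that differed between the groups, their rises are no separate finding.

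The carrier of latent TGF-beta on the cell surface moved most among the genes that store and activate the ligand. Lrrc32 (GARP), which tethers the latent complex to the plasma membrane where integrins can release it, had 654, 607 and 499 CPM in forskolin A, B and C, against 191, 181 and 131 CPM in DMSO A, B and C. All forskolin libraries were far above all DMSO libraries, and the rise was 3.49-fold (log2 change 1.80 ± 0.17, SE, adjusted p = 0.000181). The gene is also known from platelets and endothelium, whose marker sums are given above; Egfl7, an endothelial gene in that list, rose as well, and its relation to Lrrc32 was not tested. Of 16 tested genes of the activation list, 1 rose and 0 fell, with a median log2 change of 0.15 (5 rose without both C libraries, 3 by limma-voom and 2 by DESeq2). For this and the lists below, 2.22% of all tested genes were called higher and 0.572% lower. Without both C libraries 5.86% were called higher and 491 of 12597 genes lower. In either direction, limma-voom called 3.94% of all tested genes and DESeq2 4.52%. The most abundant, Thbs1, a thrombospondin that activates latent ligand, had 2062 ± 330 CPM with forskolin and 1959 ± 141 CPM with DMSO, and Itgb1, the common integrin beta chain, 1181 ± 317 and 1210 ± 232 CPM (SD, n = 3 each). The leukocyte carrier gene Nrros and the integrin gene Itgb8, named after their values were seen, did not pass 8.13 and 0.651 CPM in any library.

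Among extracellular proteins that bind TGF-beta, 1 of 7 tested rose and 0 fell (median 0.07; also 1 without both C libraries). Vasn, vasorin, a surface protein that traps TGF-beta, had 436, 417 and 522 CPM in forskolin A, B and C, against 281, 269 and 270 CPM in DMSO A, B and C. The groups did not overlap and it averaged 459 ± 56.2 CPM with forskolin and 273 ± 6.64 CPM with DMSO (SD, n = 3 each; log2 change 0.74 ± 0.12, SE, adjusted p = 0.00724); its adjusted p was 0.0554 without DMSO A and 0.0644 without DMSO B. Bgn, the proteoglycan biglycan, had 410 ± 9.34 and 392 ± 40.9 CPM. Other type I and type II receptors of the superfamily gave no call among 7 tested, by edgeR, with 1 at an unadjusted p under 0.05, and all 7 log2 changes were negative (median -0.20). Bmpr2 was at 264 ± 31.1 CPM with forskolin and 293 ± 25.6 CPM with DMSO (SD, n = 3 each), and Bmpr1a averaged 138 CPM with forskolin and 151 CPM with DMSO. Without both C libraries 2 of the receptor genes were called lower, where 491 of 12597 genes were.

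Downstream, Smad transducers and adaptors gave 0 calls among 11 tested by edgeR, with a median of -0.19; 3 had an unadjusted p under 0.05, where 12.1% of all tested genes did. Without both C libraries 1 was higher and 2 lower. DESeq2, limma-voom and edgeR with RLE factors, with no filter, with the replicate block or without forskolin C each called 1 higher. Tab2 and Map3k7, parts of the TAK1 kinase complex and the most abundant of the list, stood at log2 changes of -0.23 ± 0.10 (adjusted p = 0.397) and -0.07 ± 0.11 (adjusted p = 0.89). Smad3, the transducer phosphorylated by TGFBR1 and named after its values were seen, had 44.8, 45.9 and 40.8 CPM in forskolin A, B and C, against 28.9, 24.4 and 19.3 CPM in DMSO A, B and C (log2 change 0.85 ± 0.20, SE, adjusted p = 0.0539). Negative regulators held 3 risers and 0 fallers among 15 tested, with a median of 0.00 (5 and 0 with the C libraries left out). The inhibitory Smad gene Smad6 averaged 92.0 ± 15.1 CPM with forskolin and 31.2 ± 6.08 CPM with DMSO; Skil, a Smad corepressor, averaged 219 ± 9.46 and 140.0 ± 6.17 CPM (SD, n = 3 each). Bambi, a pseudoreceptor gene, had 104, 95.5 and 117 CPM in forskolin A, B and C, against 42.6, 38.5 and 49.1 CPM in DMSO A, B and C. The other inhibitory Smad, Smad7, named after its values were seen, had 352 CPM with forskolin and 396 CPM with DMSO on average (log2 change -0.17 ± 0.18, adjusted p = 0.845).

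Genes known to respond to TGF-beta split: 5 rose, 1 fell and 17 did not pass among 23 tested, with a median of 0.30 (8 and 1 without both C libraries; 3 and 1 without DMSO A or without DMSO B). The list includes Ltbp2. Il11, an interleukin-6 family cytokine, had 108 ± 18.8 CPM with forskolin and 8.85 ± 2.90 CPM with DMSO (SD, n = 3 each), a log2 change of 3.70 ± 0.24 (adjusted p = 1.2e-05). Id3, a helix-loop-helix inhibitor, rose by 1.53 ± 0.21 and Klf10, a zinc finger repressor first found as a TGF-beta response gene, by 1.11 ± 0.17, while Ctgf, connective tissue growth factor, fell by 1.06 ± 0.16 on the log2 scale. Junb and Id2, named after their values were seen, were the other risers. Many of these genes also answer to other signals. The fibrosis genes Col1a1, Acta2 and Fn1, named after their values were seen, were not called. Col1a1 was at 0.30 (95% interval -0.48 to 1.08, adjusted p = 0.857) and Acta2 at 0.03 (-0.88 to 0.95, adjusted p = 0.997). The intervals of Col1a1 and Acta2 do not show that these genes were unchanged. Fn1 was at 0.87 (0.34 to 1.40, adjusted p = 0.109), with no overlap between the groups. Of 9 tested activin, inhibin and GDF ligand genes and their binders, 2 rose and 0 fell, with a median of 0.30 (3 and 1 without both C libraries). Gdf15, a stress-induced member of the superfamily, averaged 317 ± 55.7 CPM with forskolin and 164 ± 18.9 CPM with DMSO, and Gdf2, which encodes BMP9, 32.2 ± 8.33 and 14.7 ± 2.27 CPM (SD, n = 3 each); the Gdf2 call (adjusted p = 0.0432) did not hold without forskolin A or B or any DMSO library, where the adjusted p ran from 0.0594 to 0.256.

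**Figure D4:**
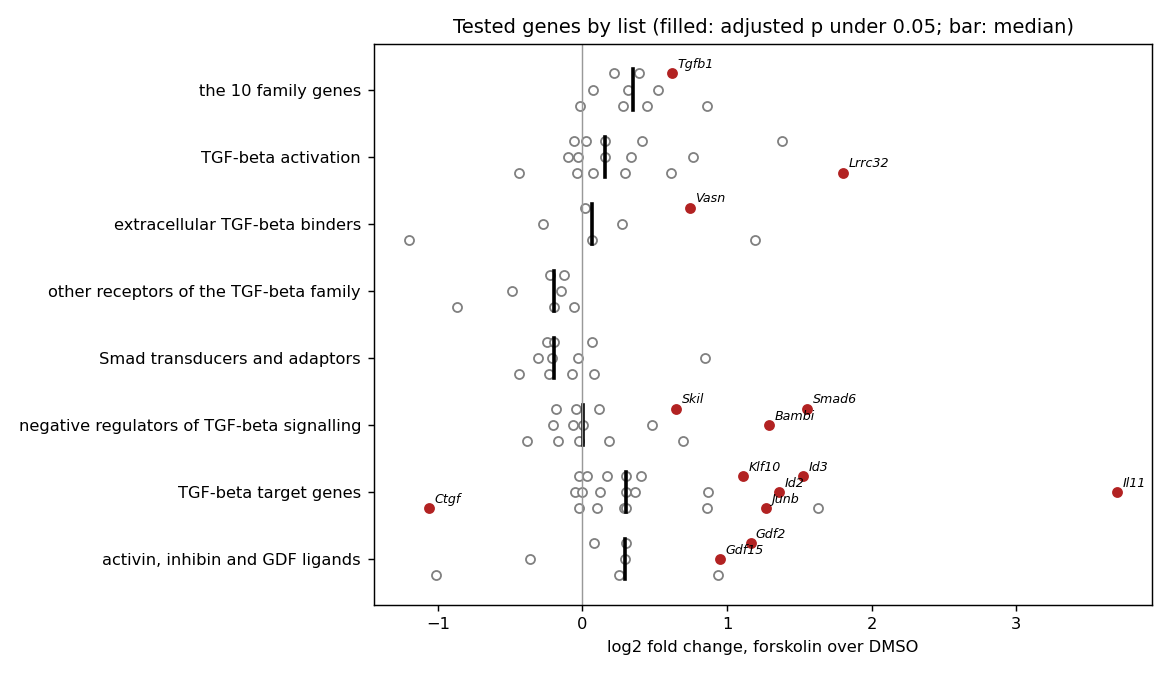
Log2 fold change, forskolin over DMSO, of every tested gene of the 10-gene family and of the 7 pathway lists; filled points have an adjusted p under 0.05 and bars are medians. Tgfb1 is the filled point of the family, Lrrc32 of the activation list at 1.80 and Il11 lies farthest right at 3.70; the list of other receptors lies left of 0.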

How the data were processed

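Polyadenylated RNA of 6 libraries was sequenced, 3 per group. Per the submitters' processing notes, STAR, HOMER and the mm10 build were used; no version, setting or counting rule is given in these sources. The authors deposited expected counts per gene over exons, unadjusted per the file name, in steps of 0.5, with a transcript length in bases (other columns give mm10 coordinates); 0 library columns lacked a sample. Values were rounded to integers (ties to even). Genes were kept by filterByExpr and scaled by TMM. The comparison of forskolin over DMSO used the quasi-likelihood test in edgeR 4.0.16 (R 4.3.3) with robust dispersions, adjusted by Benjamini-Hochberg over all 12233 tested genes and called at 0.05. SEs are the absolute log2 change over the root of F. Shares and ratios used unrounded counts per kb of the deposited transcript, with 0.5 counts added for ratios, and exact permutation tests (scipy 1.17.1). The number of libraries, depth and spread limit precision. Promoters are from RefSeq (GRCm38.p6), exon overlaps from GENCODE M21. The test was checked on simulated counts with no change or with changes larger than that of Tgfb1, so the check does not cover a change of that size.

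Members, gene lists and tests were chosen with earlier results of these data known, so counts over lists are descriptions. Named genes are all 10 members, and per pathway list up to 4 called genes by p, or, where fewer than 2 were called, also the 2 most abundant; for each called member the 3 genes most like it. Alternatives were size factors by RLE or upper quartile, unscaled library sizes, omission of the filter, a floor of 1 CPM in 3 libraries, DESeq2 1.42.0, limma-voom (limma 3.58.1), the replicate letter as a block, and each library left out; added later were a fit without both C libraries and sample quality weights.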

Additional observations from a re-analysis of the deposited data

How the results depend on the processing

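Tgfb1 kept its direction in all 16 alternatives and its call in 13, with an adjusted p from 7.19e-06 to 0.0754. Of the other members, Ltbp1 passed in 1 alternative and the remaining 8 in 0; Eng changed sign when libraries were left out in turn (log2 change -0.044 to 0.0043). Members called higher ran from 0 to 1 and lower stayed at 0 when each library was left out, and 2 were higher without both C libraries. Over all genes, leaving out a library gave 162 to 372 genes higher and 21 to 113 lower. No filter gave 463 and 157, DESeq2 409 and 144, limma-voom 125 lower, no C libraries 738 and 491, and quality weights 595 and 389; the cause was not tested. The median log2 change of all genes lay between -0.03 and 0.01 under every scaling tried.

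The replicate block gave 455 genes higher and 194 lower, and the same count of 1 member higher and 0 lower. With it, 4 activation genes, 1 Smad transducer or adaptor, 4 negative regulators and 7 target genes were called higher. Deviations of same-lettered libraries from their group means correlated at 0.0476 (A), 0.133 (B) and 0.150 (C). Forskolin B and C correlated best with the DMSO library of their own letter, but forskolin A correlated better with DMSO B (0.103). These low values do not settle whether the letters mark pairs, and the letters were not taken as pairs.

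Shares and ratios with small differences changed sign. With each library left out, the difference in share ran from -0.45 to 0.78 percentage points for Tgfb2 and from -0.16 to 0.37 for Tgfbr2, and that of the Tgfb1 over Tgfb2 log2 ratio from -0.64 to 0.19. Without division by length, the shares of Tgfb2 and Tgfbr2 differed by 0.0481 and -0.232 percentage points. Without both C libraries, the log2 ratios of Tgfb1 over Tgfb2 and Tgfb2 over Tgfb3 differed by 0.28 and -0.066. The cause was not tested.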

Other observations

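Replicate C was the lowest library of both groups for 2 of the 10 members, Ltbp1 and Ltbp3, and the highest of both for 1, Tgfbr2. Among the 88 tested genes of the pathway lists, a tally made after the values were seen, C was lowest in both groups for 33 (37.5%) and highest in both for 19 (21.6%), against 25.6% and 19.8% of all 12233 tested genes. Matrix genes stood on both sides. Fbn1, the fibrillin that anchors latent TGF-beta complexes, had 111, 135 and 60.6 CPM in forskolin A, B and C and 134, 129 and 67.1 CPM in DMSO A, B and C. Dcn, the proteoglycan decorin, had 274, 267 and 382 CPM in forskolin A, B and C and 281, 248 and 382 CPM in DMSO A, B and C. Whether the C libraries differ in their cells or in their handling is not given in the sources used here.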
